A study of Ovis aries with 9 samples.

Results

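Genes of branched-chain amino acid uptake and breakdown were followed in the longissimus dorsi, the long muscle of the back, of fetal Chinese merino sheep on days 85, 105 and 135 of gestation (called D85, D105 and D135). RNA sequencing gave 3 libraries per day, and no treatment or genotype distinguished them. More than 1 HiSeq model was used, and the labels do not say which library ran on which, so an instrument batch was not tested. The 10 genes were chosen by name, with the FPKM of these libraries already known, so the levels and tests below describe these libraries and are no independent support. They are SLC7A5, SLC7A8, SLC3A2 and SLC38A2 (transport), BCAT1 and BCAT2 (transamination), and BCKDHA, BCKDHB, DBT and BCKDK (the dehydrogenase complex and its kinase). Each name was found at 1 locus of the 22605 in the table, so the mean FPKM, which would have selected among several loci, chose none. The locus of BCKDK also carries the name of its neighbour KAT8, a histone acetyltransferase, and the reads of the pair cannot be told apart. Whether each library is a different fetus is not stated in the labels, so the p-values rest on the spread between libraries, which may be technical.

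Leucine, isoleucine and valine enter cells through exchangers made of a light chain and the shared heavy chain SLC3A2. An aminotransferase, cytosolic BCAT1 or mitochondrial BCAT2, passes their amino group to 2-oxoglutarate. The mitochondrial branched-chain keto acid dehydrogenase then commits the carbon skeleton to oxidation, and BCKDK phosphorylates that complex and switches it off. In adult mammals skeletal muscle is a major site of the transamination step, carried there mainly by BCAT2, whereas BCAT1 is known from the brain, from fetal tissue and from dividing cells.

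Values are FPKM, fragment numbers divided by the length of the transcript and by the mapped fragments of the library. Levels can thus be set beside each other between genes only as far as the gene models hold. The protein models of BCAT2, BCKDHB, DBT and SLC7A5 were annotated as low quality. Totals per library ranged from 395797 to 489270 FPKM. The number of reads is not known. At single-transcript loci below 0.1 FPKM the most frequent ratio between libraries gave an estimate of depth relative to D85 replicate 1. It was 0.993 to 1.06 for the other D85 and the D105 libraries, and 1.13 to 1.21 for the D135 libraries. Each estimate rests on 67 to 104 loci out of 991 to 1134. A locus was tested where at least 3 libraries reached 1 FPKM, which kept 13086 loci and 8 of the 10 genes. SLC7A5 and SLC7A8 were too low. BCAT1 passed through the D85 and D105 libraries alone. On the log2(FPKM + 1) scale used for all changes, the median over all loci tested was -0.02 for D105 against D85. It was -0.33 for D135 against D105 and -0.35 against D85. That scale understates changes of low genes. D105 replicate 2 stood apart from the other D105 libraries in its connective tissue markers, with summed fibroblast markers of 6798 FPKM against 2544 and 2555 FPKM. Its 6 adipocyte markers summed to 114 FPKM, against 5.65 and 7.71 FPKM. It also had the lowest BCAT1 of the D105 libraries. D135 replicate 2 had the highest adipocyte sum of its day (72.2 against 35.4 and 13.8 FPKM) and the highest BCAT1. At D85 the adipocyte sum was highest in replicate 1 (16.4 against 2.26 and 2.48 FPKM), whose BCAT1 lay between the others. A link of these markers with BCAT1 was not tested. Median-of-ratios scaling brought the last 2 medians to 0.01 and 0.01, and its values are given beside the calls of named genes that it alters.

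**Figure D1:**
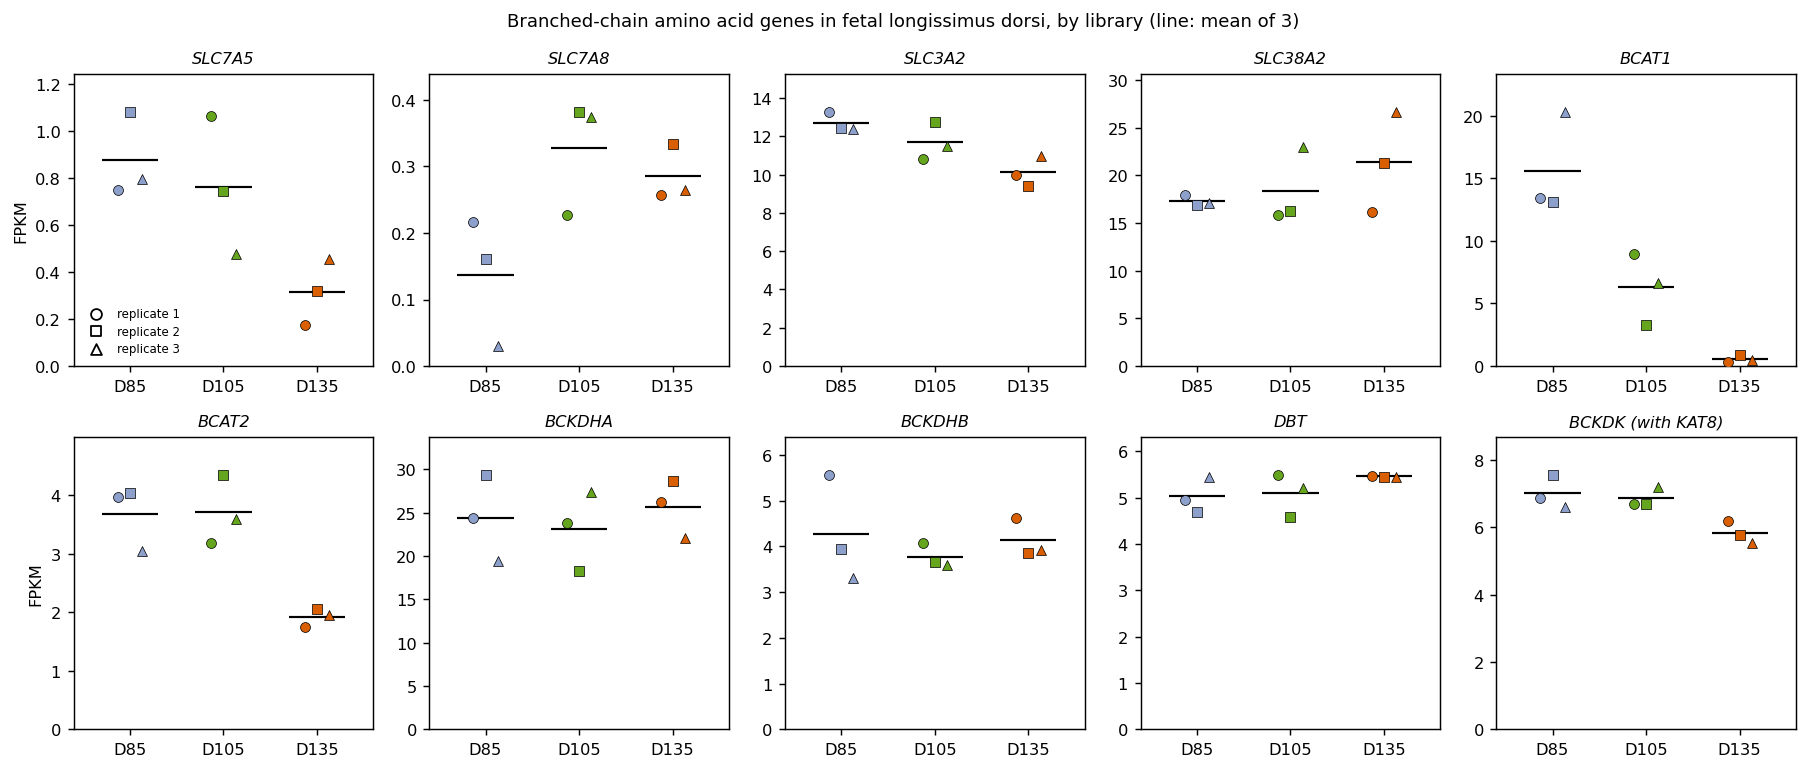
FPKM of the 10 genes (vertical axes, each from 0) in the 3 libraries of D85, D105 and D135 (horizontal axis), with replicate numbers as symbols and the mean of 3 as a line. BCAT1 lay between 13.1 and 20.3 FPKM at D85 and between 0.336 and 0.909 FPKM at D135, while BCKDHA, BCKDHB and DBT kept overlapping values on all days.

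BCAT1, the cytosolic aminotransferase, showed the widest change of the 8 tested genes. It was at 13.4, 13.1 and 20.3 FPKM in the D85 libraries. At D105 it was at 8.98, 3.31 and 6.63 FPKM. At D135 it was at 0.336, 0.909 and 0.472 FPKM. The 3 days did not overlap, and within D105 the lowest value came from replicate 2. The fall was called between the last 2 days, with a mean of 0.572 ± 0.299 FPKM at D135 and 6.31 ± 2.85 FPKM at D105 (SD, n = 3 each; log2 change -2.15 ± 0.32 SE, limma adjusted p = 0.00259). It was also called over the whole interval, with 15.6 ± 4.07 FPKM at D85 (log2 change -3.39 ± 0.32 SE, adjusted p = 0.000254), where the ratio of the D135 mean to the D85 mean was 0.0366. Of the 13086 tested loci, 9 had a more negative change from D85 to D135. Between D105 and D85 the log2 change was -1.24 ± 0.32 SE with an adjusted p of 0.179, which did not pass. Without D105 replicate 2 the log2 change of D105 against D85 was -0.90 (adjusted p = 0.268) and that of D135 against D105 was -2.49 (adjusted p = 0.00185).

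BCAT2, the mitochondrial aminotransferase, was lower than BCAT1 in every D85 library. The D85 libraries had 3.98, 4.03 and 3.04 FPKM. The D105 libraries had 3.19, 4.34 and 3.59 FPKM. The D135 libraries had 1.75, 2.05 and 1.96 FPKM. D85 and D105 overlapped, and all D135 values lay below both. BCAT2 fell to 1.92 ± 0.158 FPKM at D135, against 3.71 ± 0.587 FPKM at D105 (SD, n = 3 each; log2 change -0.68 ± 0.13 SE, limma adjusted p = 0.00640) and 3.68 ± 0.556 FPKM at D85 (log2 change -0.68 ± 0.13 SE, adjusted p = 0.00452). After median-of-ratios scaling both calls were lost (log2 change -0.35, adjusted p = 0.0858, and -0.33, adjusted p = 0.0758). Relative to the median of all tested loci the change was -0.35 and -0.32. Both calls held without D105 replicate 2. For D105 against D85 its log2 change was 0.01 ± 0.13 SE.

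The relation between the paralogs turned over between the first and the last day. BCAT1 made up 77.1%, 76.5% and 87.0% of the summed FPKM of both genes in the D85 libraries. At D105 its share was 73.8%, 43.3% and 64.8%. At D135 it was 16.1%, 30.7% and 19.4%. BCAT1 was thus the higher paralog in every D85 library and BCAT2 in every D135 library, and at D105 replicate 2 alone had more BCAT2. The summed FPKM of both paralogs averaged 19.3 ± 3.52 at D85, 10.0 ± 2.26 at D105 and 2.49 ± 0.444 at D135 (SD, n = 3 each). Dividing all values of a library by a factor leaves the ratio within it unaltered. Its log2 value averaged 2.07 ± 0.584 at D85, 0.66 ± 0.962 at D105 and -1.87 ± 0.622 at D135 (SD, n = 3 each), without a pseudocount.

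With a pseudocount of 1, the log2 ratio of BCAT1 to BCAT2 was 2.72 lower at D135 than at D85, with means of -0.91 ± 0.200 at D135 and 1.81 ± 0.513 at D85 (SD, n = 3 each). An exact permutation test of the spread between days over all 1680 assignments of the 9 libraries gave p = 0.00357, the smallest that these assignments can give, and the same p without D105 replicate 2. For each pair of days the exact two-sided permutation p was 0.1, the smallest that 3 against 3 allows. The pair was named with earlier results of these data known, so this p describes these libraries.

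**Figure D2:**
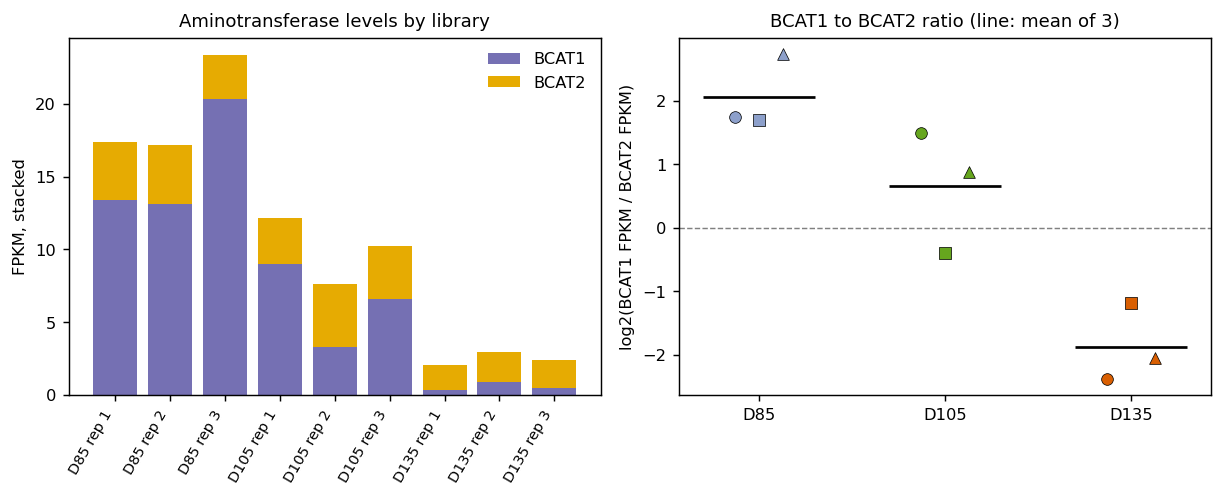
Left, FPKM of BCAT1 and BCAT2 stacked for each library (bars from 0). Right, log2 of BCAT1 FPKM over BCAT2 FPKM for each library by day, with the mean of 3 as a line and the dashed line at equal levels. All D85 libraries lie above the dashed line and all D135 libraries below it, and at D105 replicate 2 lies below it.

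No subunit of the dehydrogenase complex was called lower on any day. BCKDHA, the alpha subunit of the decarboxylase, had the highest mean of the 10 genes. It was at 24.4, 29.4 and 19.4 FPKM at D85, 23.8, 18.3 and 27.4 FPKM at D105, and 26.2, 28.6 and 22.1 FPKM at D135. BCKDHB, the beta subunit of the same enzyme, was at 5.56, 3.94 and 3.31 FPKM at D85, 4.08, 3.66 and 3.59 FPKM at D105, and 4.63, 3.87 and 3.93 FPKM at D135. DBT, the acyltransferase core, was at 4.95, 4.69 and 5.46 FPKM at D85, 5.49, 4.58 and 5.22 FPKM at D105, and 5.47, 5.45 and 5.46 FPKM at D135. The days overlapped for all 3 subunits, and the D135 values of DBT were the closest together.

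None of these 3 subunits passed the test in the FPKM as deposited. For D135 against D85 the log2 change was 0.08 ± 0.19 SE for BCKDHA, -0.02 ± 0.16 SE for BCKDHB and 0.10 ± 0.09 SE for DBT (limma adjusted p = 0.753, 0.941 and 0.405). Relative to the median of all loci these changes were 0.43, 0.34 and 0.45. After median-of-ratios scaling DBT was higher at D135 than at D85 (log2 change 0.50 ± 0.11 SE, adjusted p = 0.0107) and than at D105 (0.48, adjusted p = 0.0203), a call absent from the deposited scale. BCKDHA and BCKDHB then had log2 changes of 0.54 and 0.37 against D85 (adjusted p = 0.0672 and 0.0903). The genes kept their order in all 9 libraries in that BCKDHA exceeded BCKDHB 4.38 to 7.62 times (median 5.84) and DBT 3.56 to 6.26 times (median 4.79). BCKDHB and DBT were nearer each other, at a ratio of 0.606 to 1.12.

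BCKDK, the kinase that inactivates the complex, was measured at the locus it shares with KAT8. The locus had 6.86, 7.55 and 6.61 FPKM at D85, 6.68, 6.68 and 7.20 FPKM at D105, and 6.19, 5.76 and 5.52 FPKM at D135. All D135 libraries lay below all others, yet the difference did not pass in either comparison. For D135 against D85 the log2 change was -0.23 ± 0.09 SE (limma adjusted p = 0.0597), and for D135 against D105 it was -0.20 ± 0.09 SE (adjusted p = 0.0955). After median-of-ratios scaling the same changes were 0.18 and 0.20 (adjusted p = 0.135 and 0.138), with the opposite sign.

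Among the transport genes, SLC3A2, the heavy chain that carries the exchangers to the membrane, was at 13.3, 12.5 and 12.4 FPKM in the D85 libraries. It was at 10.8, 12.8 and 11.5 FPKM at D105 and at 9.98, 9.39 and 11.0 FPKM at D135. D135 lay below D85 without overlap. SLC3A2 fell to 10.1 ± 0.809 FPKM at D135, against 12.7 ± 0.505 FPKM at D85 (SD, n = 3 each; log2 change -0.30 ± 0.09 SE, limma adjusted p = 0.0304), a direction that flipped after median-of-ratios scaling (log2 change 0.13, adjusted p = 0.331) and after quantile normalization (0.02, adjusted p = 0.916). Its change was 0.05 relative to the median of all loci. The call was also lost with 1 library left out for 5 of the libraries, with adjusted p of 0.0890, 0.0591 and 0.0560 without D85 replicates 1, 2 and 3, and of 0.0723 and 0.0991 without D135 replicates 1 and 2.

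SLC7A5, the light chain that imports leucine in many growing tissues, stayed near or below 1 FPKM. It was at 0.748, 1.08 and 0.796 FPKM at D85, 1.06, 0.744 and 0.477 FPKM at D105, and 0.174, 0.319 and 0.454 FPKM at D135. The D135 values lay below all values of the other days. With no filter on low values, 22128 loci were tested. The change of D135 against D85 was then called (log2 change -0.51 ± 0.14 SE, limma adjusted p = 0.0298), whereas that of D135 against D105 was not (-0.41, adjusted p = 0.0748). Median-of-ratios scaling was not run without the filter, so whether this call holds on that scale was not tested. SLC3A2 exceeded SLC7A5 10.2 to 24.1 times in the D85 and D105 libraries and 24.2 to 57.4 times in the D135 libraries. SLC7A8, a light chain of wider specificity, was lower still, between 0.0307 and 0.382 FPKM over all libraries. Its D85 libraries were at 0.217, 0.161 and 0.0307 FPKM, below those of D105 (0.227, 0.382 and 0.374 FPKM) and D135 (0.257, 0.334 and 0.265 FPKM), and no change of it was called with no filter (adjusted p = 0.0987 for D135 against D85, 0.698 for D135 against D105, and 0.306 when D105 was set against D85).

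SLC38A2, a sodium-coupled carrier of glutamine and other small neutral amino acids, was the second highest of the 10 genes. It was at 17.9, 16.9 and 17.1 FPKM at D85, 15.8, 16.3 and 22.9 FPKM at D105, and 16.2, 21.3 and 26.7 FPKM at D135. The libraries spread more at the later days, and the days overlapped. The log2 change of D135 against D85 was 0.26 ± 0.19 SE (limma adjusted p = 0.300), and after median-of-ratios scaling it was 0.71 ± 0.21 SE and passed (adjusted p = 0.0384).

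Counted together, 0 of the 8 tested genes were called for D105 against D85 by limma, with 1 at an unadjusted p under 0.05 and 0 called with each of the 20 alternatives run. The background of calls was 0.199% of all tested loci (0.145% higher and 0.0535% lower), and after median-of-ratios scaling 0.191% (0.145% and 0.0459%). At an unadjusted limma p under 0.05 there were 1611 of the 13086 tested loci. For D135 against D105, 0 rose and 2 fell, where 39.5% of all loci were called, 4.47% higher and 35% lower. For D135 against D85, 0 rose and 3 fell, where 46.6% of all loci were called, 6.9% higher and 39.7% lower, so the share of genes that fell is near the background. After median-of-ratios scaling 1 rose and 1 fell for D135 against D105, where 17.6% of all loci were called, 10.6% higher and 6.96% lower. For D135 against D85, 2 rose and 1 fell on that scale, where 27.5% were called, 14.9% higher and 12.5% lower. The gene that fell under that scaling was BCAT1 in both comparisons. The median change of the 8 genes was -0.12 for D135 against D85, beside -0.35 for all loci.

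**Figure D3:**
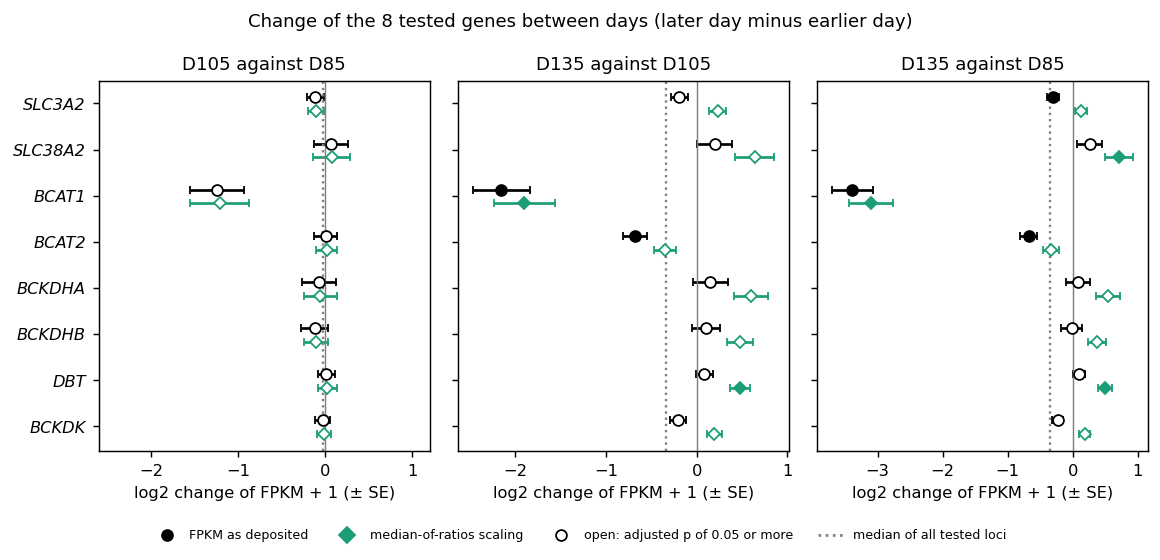
Log2 change of FPKM + 1 with its SE (horizontal axes, each with its own range) for the 8 tested genes (rows) in the 3 comparisons, later day minus earlier day. Black circles use the FPKM as deposited and green diamonds median-of-ratios scaling, filled where the adjusted p is under 0.05; the dotted line is the median of all tested loci. BCAT1 is filled on both scales in both comparisons of D135, BCAT2 on the deposited scale alone.

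Markers of dividing cells and of muscle fibres also differed between D135 and the earlier days. The summed level of 8 markers of dividing cells was 90.0 to 113 FPKM at D85, 81.2 to 88.5 FPKM at D105 and 24.8 to 34.1 FPKM at D135. All 8 of 8 fell at D135 against either earlier day, where 35% of all loci were called lower against D105 and 39.7% against D85. After median-of-ratios scaling 8 fell against D85 and 7 against D105, where 12.5% and 6.96% of all loci were called lower. The call lost was that of PCNA, a clamp of DNA replication (log2 change -0.67, limma adjusted p = 0.0854). TOP2A, a topoisomerase of dividing cells, was at 5.54 ± 1.46 FPKM at D135 against 24.1 ± 1.48 FPKM at D105 (SD, n = 3 each; log2 change -1.96, limma adjusted p = 0.000622). None was at 0 in all libraries, and the days did not overlap in the sum. The summed fibroblast markers, 8 of 8 found, lay at 2053 to 3209 FPKM at D85, 2544 to 6798 FPKM at D105 and 1437 to 3320 FPKM at D135. The highest value came from D105 replicate 2. In that library the 9 markers of tendon and cartilage summed to 417 FPKM, against 77.4 and 65.8 FPKM in the other D105 libraries. Most of these markers were highest in that library, but not all. COL2A1, cartilage collagen, was at 67.8 FPKM against 1.07 and 1.88 FPKM. TNMD was at 85.2 against 2.06 and 3.05 FPKM, and FMOD at 164 against 7.32 and 10.1 FPKM. COMP was at 2.96 against 0.0197 and 0.0208 FPKM, and ACAN at 2.47 against 0.237 and 0.289 FPKM. THBS4 was at 92.9 against 64.4 and 47.8 FPKM. SOX9 was lowest in D105 replicate 2 (1.62 against 1.91 and 1.68 FPKM), as was MATN1 (0.0119 against 0.0507 and 0.0242 FPKM). SCX lay between the others (0.321 against 0.311 and 0.966 FPKM). The summed level of 8 muscle fibre markers was 7011 to 9397 FPKM at D85, 8547 to 11621 FPKM at D105 and 16428 to 19965 FPKM at D135. For D135 against D85, 4 of the 8 rose, 1 fell and 3 did not pass, where 6.9% of all loci were called higher and 39.7% lower. After median-of-ratios scaling 6 rose and 0 fell, beside 14.9% and 12.5% of all loci. ACTA1, skeletal alpha-actin, rose to 5292 ± 1153 FPKM at D135, against 1103 ± 241 FPKM at D85 (SD, n = 3 each; log2 change 2.26, limma adjusted p = 0.000714). The marker that fell was MYOD1, a myogenic transcription factor, at 3.62 ± 0.412 FPKM at D135 against 7.12 ± 1.47 FPKM at D85 (limma adjusted p = 0.0115), a call that median-of-ratios scaling removed (adjusted p = 0.176). The part of dividing cells, muscle fibres, connective tissue or fat cells in the change of BCAT1 was not tested, and in these bulk samples fewer cells of a type and less RNA per cell cannot be told apart.

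**Figure D4:**
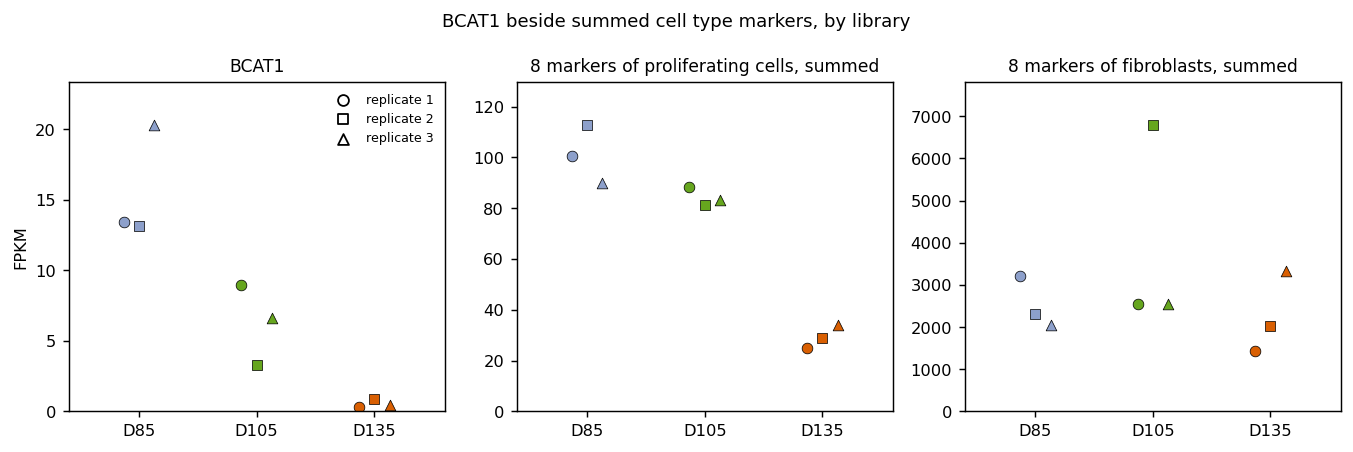
FPKM by library and day of BCAT1 (left), of 8 summed markers of proliferating cells (middle) and of 8 summed fibroblast markers (right), each axis from 0. The proliferation sum is 24.8 to 34.1 at D135 and at least 81.2 on the earlier days, and the fibroblast sum is highest in D105 replicate 2.

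Of 17 enzymes that carry the products to acetyl-CoA, acetoacetate and succinyl-CoA, 4 rose, 0 fell and 13 did not pass for D135 against D85, and 0 passed for D105 against D85 (1 at an unadjusted p under 0.05). Of all tested loci 6.9% were called higher and 39.7% lower for D135 against D85, and 0.145% and 0.0535% for D105 against D85. In the latter comparison 1611 of the 13086 tested loci had an unadjusted limma p under 0.05. For D135 against D85 the median log2 change of the 17 was 0.16, beside -0.35 for all loci. On the median-of-ratios scale 8 rose and 0 fell, where 14.9% of all loci were called higher and 12.5% lower. ACAT1, which splits acetoacetyl-CoA, rose to 6.92 ± 1.35 FPKM at D135, against 3.38 ± 0.760 FPKM at D85 (SD, n = 3 each; log2 change 0.86 ± 0.17 SE, limma adjusted p = 0.00501). PCCB, a propionyl-CoA carboxylase subunit, rose to 21.7 ± 2.65 FPKM at D135, against 13.1 ± 0.423 FPKM at D85. ECHS1, the enoyl-CoA hydratase shared with fatty acid oxidation, rose to 34.0 ± 3.79 FPKM at D135, against 22.3 ± 2.51 FPKM at D85. HIBADH, of valine breakdown, rose to 23.9 ± 1.19 FPKM at D135, against 17.7 ± 0.575 FPKM at D85. Of 5 partners and regulators of the complex, 1 rose, 0 fell and 4 did not pass, against 6.9% higher and 39.7% lower over all loci. The one that rose was DLD, the dehydrogenase subunit shared with other keto acid dehydrogenases, at 16.9 ± 1.79 FPKM at D135 against 9.51 ± 0.355 FPKM at D85 (log2 change 0.76 ± 0.10 SE, limma adjusted p = 0.00101). With D135 replicate 1 left out, 1 of the 5 rose and 1 fell, where 733 of 12947 loci were called higher and 4585 lower. PPM1K, the phosphatase that reverses BCKDK and was named for that role, had means of 14.6, 19.8 and 12.7 FPKM at D85, D105 and D135 and did not pass.

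Enzymes that handle the amino group changed in both directions. Of 10 genes of glutamate, alanine, aspartate and glutamine metabolism, 5 rose, 3 fell and 2 did not pass for D135 against D85, and on the median-of-ratios scale 5 rose and 1 fell. The shares over all loci were 6.9% higher and 39.7% lower as deposited, and 14.9% and 12.5% on the median-of-ratios scale. With D85 replicate 1 left out 4 rose and 1 fell, where 799 of 12899 loci were called higher and 4225 lower. GPT2, mitochondrial alanine aminotransferase, was at 6.08, 7.07 and 5.05 FPKM at D85, 16.7, 14.7 and 28.0 FPKM at D105, and 30.9, 28.7 and 30.7 FPKM at D135. The 3 days did not overlap. It rose to 30.1 ± 1.23 FPKM at D135, against 6.07 ± 1.01 FPKM at D85 (SD, n = 3 each; log2 change 2.15 ± 0.22 SE, limma adjusted p = 0.000341). GOT2, mitochondrial aspartate aminotransferase, rose to 75.1 ± 21.5 FPKM at D135, against 26.5 ± 8.12 FPKM at D85. GOT1, its cytosolic counterpart, rose to 37.4 ± 2.06 FPKM at D135, against 16.6 ± 1.46 FPKM at D85. ASNS, asparagine synthetase, which is also in the ATF4 list given further on, fell to 1.58 ± 0.0984 FPKM at D135, against 5.86 ± 1.95 FPKM at D85 (log2 change -1.37 ± 0.23 SE, limma adjusted p = 0.00231). In this group the cytosolic and the mitochondrial aspartate enzymes both rose, whereas for the branched-chain pair both members fell on the deposited scale.

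**Figure D5:**
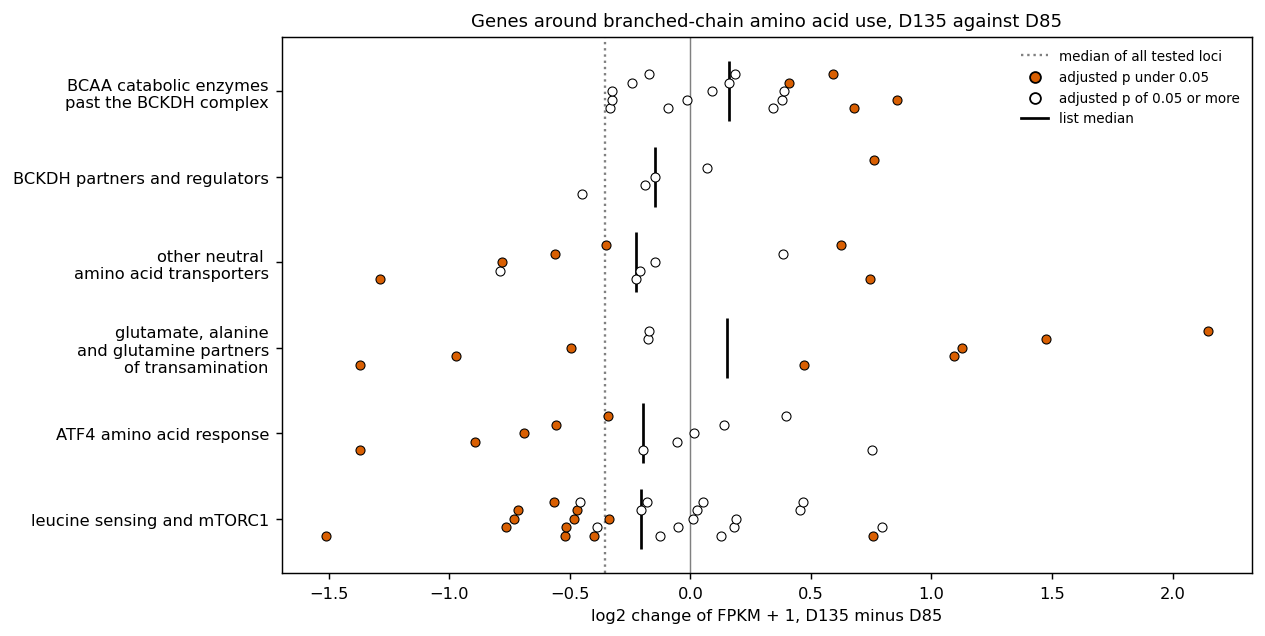
Log2 change of FPKM + 1, D135 minus D85 (horizontal axis), for the tested genes of 6 lists (rows); points are genes, filled where the adjusted p is under 0.05, bars are list medians and the dotted line is the median of all tested loci. The filled points of the catabolic enzymes lie right of 0, and GPT2 lies farthest right at 2.15.

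Of 14 other carriers of neutral amino acids listed, 11 were tested, and for D135 against D85 2 rose, 4 fell and 5 did not pass. The share that fell is near the 39.7% of all loci called lower, and 6.9% were called higher. On the median-of-ratios scale 3 rose and 1 fell, beside 14.9% and 12.5% of all loci. SLC38A1, a relative of SLC38A2, fell to 3.47 ± 0.388 FPKM at D135, against 10.0 ± 1.91 FPKM at D85 (SD, n = 3 each; log2 change -1.29 ± 0.14 SE, limma adjusted p = 0.000437). SLC7A6, another light chain of SLC3A2, fell to 0.910 ± 0.340 FPKM at D135, against 2.26 ± 0.297 FPKM at D85, a call that median-of-ratios scaling removed (adjusted p = 0.0744). SLC38A3 rose to 1.65 ± 0.580 FPKM at D135, against 0.563 ± 0.160 FPKM at D85. SLC38A4 rose to 3.36 ± 1.26 FPKM at D135, against 1.76 ± 0.128 FPKM at D85, with a limma adjusted p of 0.0397. That call was lost with each of the 3 D85 libraries left out, and without D105 replicate 3, D135 replicate 1 or D135 replicate 3 (limma adjusted p of 0.0548 to 0.0956).

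The amino acid response driven by the transcription factor ATF4 has SLC7A5, SLC3A2 and SLC38A2 among its known targets in human and mouse cells. ATF4, named for its role, was at 35.4 ± 10.2 FPKM at D85, 28.2 ± 2.09 FPKM at D105 and 34.7 ± 13.2 FPKM at D135 (SD, n = 3 each) and did not pass. Of 16 listed genes 11 were tested, and for D135 against D85 0 rose, 5 fell and 6 did not pass, a share near the 39.7% of all loci called lower. After median-of-ratios scaling 0 rose and 1 fell, where 12.5% of all loci were lower. The count was 3 without D85 replicate 1, 2 or 3 or D105 replicate 1. Over all loci 4225 of 12899, 4183 of 12878 and 4640 of 12940 were called lower without D85 replicates 1, 2 and 3. Without D105 replicate 1 it was 5002 of 12921. Besides ASNS, PHGDH, of serine synthesis, fell to 2.30 ± 0.698 FPKM at D135, against 5.05 ± 0.434 FPKM at D85 (limma adjusted p = 0.00434). EIF2AK4, the kinase that senses uncharged transfer RNA, fell to 3.88 ± 0.496 FPKM at D135, against 6.17 ± 0.883 FPKM at D85. Median-of-ratios scaling removed both of these calls (adjusted p = 0.0656 and 0.353). PSAT1, also of serine synthesis, had a limma adjusted p of 0.0444 and overlapping libraries, and its call was lost in 14 of the 20 alternatives. The adjusted p was 0.256 after median-of-ratios scaling (log2 change -0.42) and 0.269 after quantile normalization. In the fits with 1 library left out it reached 0.132 (without D85 replicate 2).

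Leucine sensors act upstream of the growth kinase complex mTORC1. Of 30 genes listed for this route 27 were tested, and for D135 against D85 1 rose, 11 fell and 15 did not pass. The share that fell is near the 39.7% of all loci called lower, with 6.9% higher. On the median-of-ratios scale 6 rose and 1 fell, beside 14.9% and 12.5% of all loci. Sestrins restrain the complex, and a pair of them moved apart. SESN3, at a locus joined with an unnamed gene, was at 50.3, 51.8 and 55.6 FPKM at D85, 48.6, 38.0 and 58.6 FPKM at D105, and 17.6, 16.6 and 19.1 FPKM at D135. SESN1 was at 6.59, 6.66 and 5.72 FPKM at D85, 8.49, 8.32 and 9.42 FPKM at D105, and 12.9, 10.7 and 10.6 FPKM at D135. All D135 libraries were below the others for SESN3 and above the others for SESN1. SESN3 fell (log2 change -1.51 ± 0.15 SE, limma adjusted p = 0.000300) and SESN1 rose (0.76 ± 0.11 SE, adjusted p = 0.00121) for D135 against D85, both also after median-of-ratios scaling. RPS6KB1, the ribosomal S6 kinase, fell to 4.02 ± 0.470 FPKM at D135, against 7.30 ± 0.285 FPKM at D85. RRAGC, a Rag GTPase, fell to 2.15 ± 0.352 FPKM at D135, against 4.50 ± 1.80 FPKM at D85 (limma adjusted p = 0.0214). Median-of-ratios scaling removed both calls (adjusted p = 0.0566 and 0.217), and that of RRAGC also without D135 replicate 2 (adjusted p = 0.0702) or D135 replicate 3 (adjusted p = 0.0535).

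Genes with patterns most like those of the aminotransferases were read from Pearson's r over the 9 libraries on the log2(FPKM + 1) scale, among 11260 named loci. The libraries share their 3 days, so r is a description. For BCAT1 they were ADGRV1, an adhesion receptor (r = 0.994), FIGNL1 (r = 0.994), IGF1R, the receptor of insulin-like growth factors (r = 0.993), FRMPD1 (r = 0.991) and IGF2BP2, an RNA-binding protein (r = 0.989). ADGRV1 was at 15.7 ± 2.09 FPKM at D85, 9.13 ± 2.90 FPKM at D105 and 2.66 ± 0.103 FPKM at D135 (SD, n = 3 each). IGF2BP2 was at 12.0 ± 1.09 FPKM at D85, 8.28 ± 0.897 FPKM at D105 and 3.53 ± 0.283 FPKM at D135. For BCAT2 they were ZRANB3 (r = 0.993), CCNB3, a cyclin (r = 0.986), FANCD2, of DNA crosslink repair (r = 0.985), ADNP (r = 0.984) and IFT80, of cilia (r = 0.983).

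The deposited annotation differed between the 10 loci. It placed 5 of them, namely both aminotransferases, BCKDHA, BCKDHB and DBT, in the KEGG pathway of valine, leucine and isoleucine degradation. It described the protein model of 4, namely BCAT2, BCKDHB, DBT and SLC7A5, as a low-quality prediction, and 7 had a single transcript. How a gene model of low quality bears on the level of its gene, or on a ratio between genes such as BCAT1 to BCAT2, was not tested.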

How the data were processed

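The authors deposited FPKM values in a table whose columns are named for the libraries. The submitters' processing notes name cutadapt, Bowtie2 and TopHat2. The assembler, the counting method and the genome build are not given in the sources used, so no coordinates are printed. Libraries were grouped by their titles, 3 per day. No depth in reads is known.

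Of 22605 loci, the 13086 with 1 FPKM or more in at least 3 libraries were tested. The log2(FPKM + 1) values of the 9 libraries went into 1 fit by limma 3.58.1 (R 4.3.3; eBayes with trend, day as factor). P-values are two-sided, adjusted by Benjamini-Hochberg over the tested loci, with a threshold of 0.05. The 10 genes and the lists were chosen with earlier results of these data known. Of 92 entries in 6 lists, 91 were matched. Named from each list were up to 4 called genes with the largest change for D135 against D85, and for BCAT1 and BCAT2 the 5 loci of highest correlation. ATF4 and PPM1K fall outside that rule and were named with their values in view. So were the genes named from the marker lists, apart from the examples COL2A1, TOP2A and ACTA1. SYT13 and BRI3, of the KEGG annotation, also fall outside it. Other settings varied the pseudocount (0.1 or 0.5), filter, scaling, trend, weights and libraries fitted, and added the replicate number as a block. Figures were drawn with matplotlib 3.10.9.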

Additional observations from a re-analysis of the deposited data

How the results depend on the processing

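Both calls of BCAT1 held in all 20 alternatives run, with log2 changes of -4.61 to -3.10 for D135 against D85 and -3.23 to -1.85 for D135 against D105. The difference of D135 from D85 in the log2 ratio of BCAT1 to BCAT2 stayed negative, at -2.42 to -2.87 with a library left out (exact permutation p of 0.00357 to 0.0393). That p is at the smallest its assignments can give in most settings, so an unaltered p says little about stability. Without a pseudocount, a choice made after seeing the data, the difference of D135 from D85 was -3.93 (exact permutation p = 0.00357). The sum over all loci of a name could not differ, since each name had 1 locus. BCAT2 lost its calls under median-of-ratios scaling and quantile normalization alone. SLC3A2 reversed for D135 against D85 under these scalings (log2 change 0.132 and 0.0170), and DBT gained a call under both. With no filter SLC7A5 brought the genes that fell for D135 against D85 to 4 of the 10, where 5628 of 22128 loci were called lower. The same-numbered libraries of different days did not deviate together (correlations of -0.0659 to 0.0605 over 9 pairs, 0 above 0.1), so the numbers are not taken as a pairing. With the replicate block the BCAT ratio had an exact permutation p of 0.0278, and among the 10 genes SLC3A2 alone lost a call (adjusted p = 0.0684). Of all loci, 26 were called for D105 against D85, 45 with no filter, 8 with the replicate block, and 14 to 27 with a library left out (14 without D135 replicate 2, and 15 without each D85 library). For D135 against D105, 5164 were called, 2300 after median-of-ratios scaling (1389 higher and 911 lower), 2058 after quantile normalization, and 3416 to 5091 with a library left out (3416 without D135 replicate 2). For D135 against D85, 6097 were called, 3594 after median-of-ratios scaling (1952 higher and 1642 lower) and 3542 after quantile normalization. FPKM holds no counts, so the precision that depth allows at the low levels of SLC7A5, SLC7A8 and, at D135, BCAT1 is unknown.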

Other observations

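The deposited KEGG annotation places 67 loci in valine, leucine and isoleucine degradation, a list taken up after the values were seen. Of these, 50 were tested, and for D135 against D85 11 were called higher, 10 lower and 29 did not pass, where 6.9% of all tested loci were higher and 39.7% lower, with a median log2 change of -0.02 beside -0.35 for all loci. After median-of-ratios scaling 19 were called higher and 5 lower, beside 14.9% and 12.5% of all loci. For D105 against D85 0 were called by limma, where 0.199% of all tested loci were called. At an unadjusted p under 0.05 there were 6, beside 1611 of the 13086 tested loci. The 67 loci include 5 of the 10 genes and enzymes counted above, such as PCCB and ECHS1, so these counts are not independent of the earlier ones. They also include SYT13 and BRI3, and the place of each locus in the pathway was not checked. The endothelial markers, 8 of 9 found, summed to 158 to 188 FPKM at D85, 246 to 259 FPKM at D105 and 181 to 224 FPKM at D135.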
